A study of Mus musculus with 8 samples.

Results

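Interferon beta, the chains of the type I and type II interferon receptors and the Janus kinases (JAKs) bound to them were examined in bone marrow-derived macrophages (BMDMs) with and without Nudt21. The 8 genes Ifnb1, Ifnar1, Ifnar2, Ifngr1, Ifngr2, Jak1, Jak2 and Tyk2 were taken by symbol from 21080 gene symbols. Every one of them was listed for all 8 samples, Ifnb1 with a value of 0 in some. WT BMDMs came from LysM-Cre mice, the sex-matched littermates of the Nudt21 fl/fl LysM Cre mice (Nudt21-cKO, hereafter cKO), in which Cre driven from the lysozyme M locus removes exons 2 and 3 of Nudt21 in myeloid cells. WT and cKO cells thus both carried the Cre, and all mice were on the C57BL/6 background. Each group had 2 samples, each a pool of BMDMs of 2 mice grown with M-CSF at 100 ng/ml, and cells of either genotype were measured unstimulated (0 h) or after a night in 50 ng/ml IFNγ and 4 h in 50 ng/ml LPS (4 h). The treatment field of the labels names the stimulation for the 0 h samples too, and these were taken as unstimulated from their titles. The age of the mice that gave the BMDMs is not given in the sources used here.

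Interferon beta is a secreted cytokine that macrophages make after LPS binds Toll-like receptor 4, through the adaptor TRIF and the transcription factor IRF3. It binds a receptor of the chains IFNAR1 and IFNAR2, which carry TYK2 and JAK1, and the kinases phosphorylate STAT transcription factors. IFNγ, a product of T and NK cells that activates macrophages, binds IFNGR1 and IFNGR2, which carry JAK1 and JAK2. Nudt21 encodes a subunit of cleavage factor Im, which binds UGUA in the 3′UTR of nascent RNA and takes part in the choice of the polyadenylation site.

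In GRCm38, Ifnb1 is a gene of 1 exon on the minus strand of chromosome 4, from 88522025 to 88522774. Its transcript of 750 bases ends in a 3′UTR of 201 bases, and 12.1% of 16329 coding genes have a shorter one in GENCODE M21. Ifnar2 (chromosome 16, 91372783 to 91405589), Ifnar1 (91485238 to 91507441) and Ifngr2 (91547072 to 91565623) follow each other on the plus strand of chromosome 16. Ifngr1 lies on chromosome 10 (19591949 to 19610229, plus strand), Jak1 on chromosome 4 (101152367 to 101265282, minus strand), Jak2 on chromosome 19 (29251828 to 29313080, plus strand) and Tyk2 on chromosome 9 (21104068 to 21131243, minus strand). Exons of Jak1 overlap those of Raver2, whose coverage was below 1 in every sample, and exons of Tyk2 overlap the antisense gene 1700084C06Rik, which reached 320 to 655 and whose reads cannot be told from those of Tyk2 without strand. Exons of Ifnar2 overlap Gm21970 on the same strand, for which no value was found.

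The start of Ifnb1 is shown because its 2 best known control elements lie next to each other there. The RefSeq promoter window (250 bases before to 50 after the start, GRCm38.p6) held the letters AANNGAAA, bound by interferon regulatory factors, 3 times and the κB consensus, bound by NF-κB, once. Of 32851 RefSeq windows of that length, 23.9% held AANNGAAA and 8.46% held the κB consensus on either strand, and among the 8 genes only Ifnb1 held the former, while Ifngr2 shared the latter. In the stretch at chr4:88522894-88522923 (minus strand, 129 to 100 bases before the RefSeq start, which lies upstream of the GENCODE start given above), the capitals mark the last AANNGAAA and the κB match, which do not overlap.
Ifnb1 promoter: gagAACTGAAAgtGGGAAATTCCtctgagg
The gamma-activated sequence TTCNNNGAA, bound by STAT dimers, was found in the windows of Ifnar1 and Ifnar2 and in 8.30% of all windows. The window of Jak2 held none of these letters.

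The 3′UTRs are shown because Nudt21 protein recognises UGUA there. Written with T as in the reference, UGUA occurred 12 times in the 3′UTR of Ifngr2, 11 times each in Ifnar1 and Jak2, 5 times in Ifngr1, 3 times each in Ifnar2 and Jak1 and once in Tyk2, against a median of 5 per coding gene. Ifnb1 had none, which was the case for 12.8% of coding genes. Per kilobase, Ifngr1 (9.24) and Jak2 (8.93) held the most and Tyk2 (1.02) the least of the genes with a site, against a median of 5.0. The last UGUA of each of 4 members is given in capitals with its surroundings, for Jak2 together with the site just before it.
Ifngr1, chr10:19610154-19610183: attggtgggagctTGTAcatacttttttat
Jak2, chr19:29312732-29312761: ataattTGTAaaaTGTAcaagctctttaag
Ifnar1, chr16:91507378-91507407: aagatagctacagTGTAttcatatataaaa
Ifnar2, chr16:91405548-91405577: ttgaaattgtcagTGTAatacaaaagtact
This last site began 29 bases from the annotated 3′ end in Ifnar2, 51 in Ifnar1, 63 in Ifngr1 and 336 in Jak2. The 3′UTR of Ifnb1 held 4 copies of AUUUA, the core of the AU-rich elements that shorten the life of cytokine mRNAs. Jak1 held 4 as well and Ifngr2 6, and 28.6% of coding genes held at least 4. Per kilobase of its short 3′UTR Ifnb1 held 19.9 copies, which 0.165% of coding genes reached. The stretch with the most copies lies at chr4:88522086-88522115 on the minus strand.
Ifnb1 3′UTR: aaaacagagtttttattaATTTAtaATTTA
These counts describe the annotated transcripts, and which 3′ end was used in these cells was not measured here.

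Values are mean read coverage per base of a gene, so that levels of genes of different length can be set side by side. No scaling between samples was found in the deposited values. Summed over genes, coverage was 14950347 to 15827594 in the 4 WT samples and 16650103 to 17954882 in the 4 cKO samples. Fold changes are on the scale of log2(coverage + 0.1), from limma run over every gene whose mean reached 0.5. A call between genotypes required more than a 1.5-fold change and an unadjusted p under 0.05, and the p adjusted over all tested genes by the Benjamini-Hochberg method is given beside it. Nudt21 had a coverage of 718 and 641 in WT against 158 and 172 in cKO at 0 h, and of 547 and 575 in WT against 142 and 115 in cKO at 4 h. Its log2 fold change was -2.04 at 0 h (standard error, SE, 0.13, adjusted p = 0.0462) and -2.13 at 4 h (SE 0.16, adjusted p = 0.0445). The macrophage markers Csf1r, Cd68 and Adgre1 were at 8983 or above in every sample, but of the 8 macrophage markers 4 lay lower and 2 higher in cKO at 0 h and 2 lower and 3 higher at 4 h, without overlap. Among all genes tested, WT and cKO did not overlap for 57.0% at 0 h and 66.0% at 4 h. Of the B cell genes, Ms4a1 and Pax5 were below 1 in every sample, whereas Cd79b was at 142 and 123 in WT against 69.1 and 66.3 in cKO at 0 h. The 8 neutrophil markers together summed to more in cKO at each time, without overlap, at 23950 to 26510 in WT against 27800 to 36850 in cKO at 0 h and 18010 to 22250 against 22710 to 25790 at 4 h. Single markers differed in direction. At 4 h S100a8, Camp, Ngp and Ltf lay higher in both cKO samples, and S100a9 and Ly6g overlapped. Elane (97.0 and 103 in WT, 90.2 and 90.9 in cKO) and Mpo (82.0 and 120, 76.7 and 76.4) lay lower. The part of all these in the results below was not tested. In such bulk samples fewer cells of a type and less RNA per cell cannot be told apart.

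The median gene was shifted in each comparison, by a log2 value of 0.31 between genotypes at 4 h, 0.10 at 0 h, -1.24 from 0 h to 4 h in WT and -1.03 in cKO. Of the genes called between genotypes at 4 h, 83.3% were higher in cKO on the deposited scale and 51.2% after each sample was centred on its median, and at 0 h these shares were 61.6% and 50.9%. Of the genes called from 0 h to 4 h, 17.6% were higher at 4 h in WT and 61.9% after centring, and 20.7% and 60.2% in cKO. For the 8 genes, values after centring are therefore given where they change a direction or a call.

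**Figure D1:**
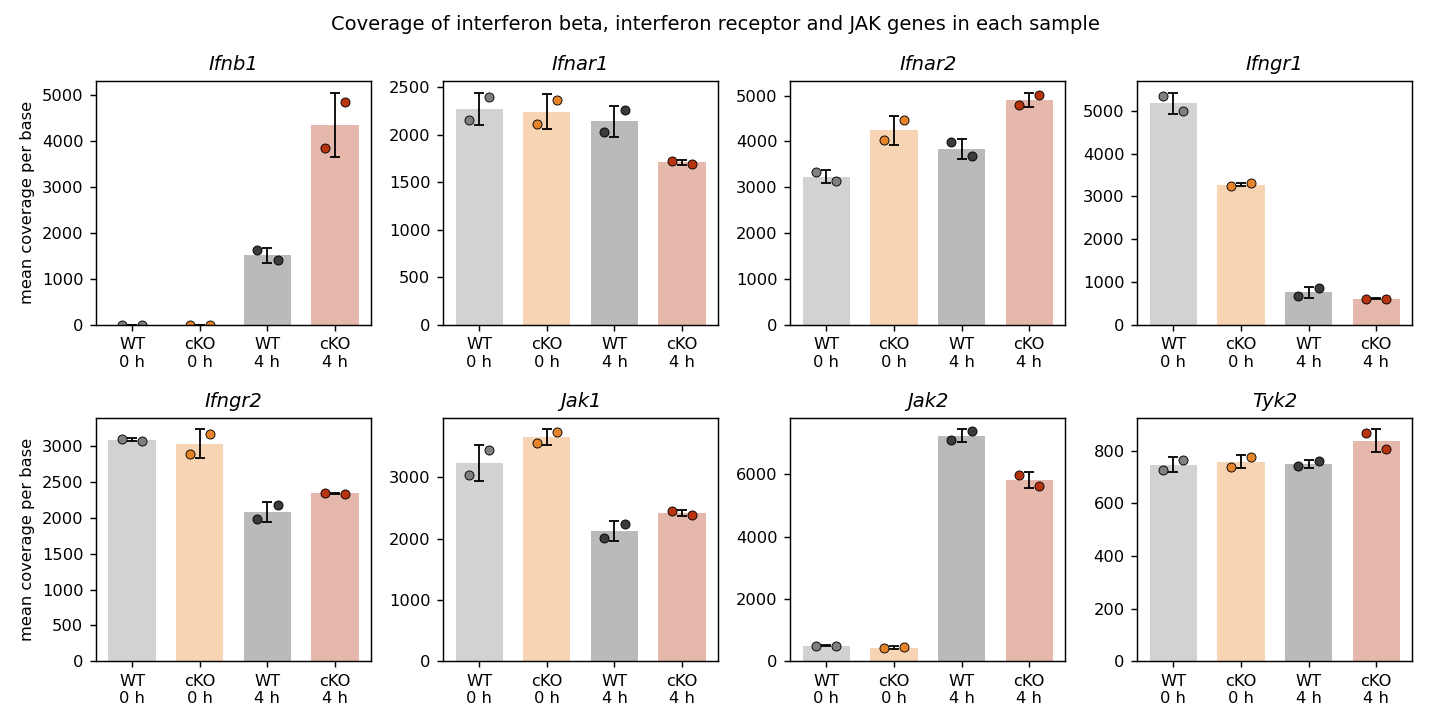
Mean read coverage per base of the 8 genes in each sample (points), with the mean of each group (bars) and its SD (error bars, n = 2), on a linear axis that differs between panels. Ifnb1 lay at 1403 to 1631 in WT and 3852 to 4851 in cKO at 4 h, Ifngr1 was lower at 4 h than at 0 h in both genotypes, and Jak2 was higher.

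Ifnb1 was the member that differed most between the genotypes. At 0 h it was listed at 0 in both WT samples and had a coverage of 0.587 and 1.20 in the cKO samples, which amounts to 440 and 900 sequenced bases over the transcript. No fold is given for a group at 0, and with a mean below 0.5 Ifnb1 was not tested at 0 h. After stimulation the coverage was 1631 and 1403 in WT against 3852 and 4851 in cKO. Neither cKO value reached down to the WT values, and the group means were 1517 ± 161 (SD, n = 2) and 4351 ± 706 (SD, n = 2). The log2 fold change at 4 h was 1.51 (SE 0.19), a 2.86-fold difference, with a p of 0.00361 and an adjusted p of 0.0572 from limma. Ifnb1 was called higher in cKO by the rule of fold change and unadjusted p, as were 20.8% of the 14950 genes tested, and it was not called with the adjusted p under 0.05, which called 3.86%. Its log2 fold change ranked above 89.9% of the tested genes. After centring the log2 fold change was 1.18, and it was called higher in all 4 fits that left out 1 sample (1.35 to 1.68). With 2 samples against 2, an exact permutation test of 1 gene cannot give a two-sided p below 0.333.

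The other type I interferons were measured at far lower levels. IFNα is encoded by a cluster of near-identical genes, so that reads can be shared between copies and the value of a single gene is uncertain. The 14 Ifna genes of the files were listed at 0 in all 4 samples at 0 h. At 4 h their coverage summed to 33.0 and 42.1 in WT and to 452 and 537 in cKO, which is 13.2-fold higher in the mean (37.5 ± 6.48 and 495 ± 59.7, SD, n = 2, exact permutation p = 0.333, the smallest possible). Set against the Ifnb1 coverage of the same library, a ratio in which depth cancels, this sum amounted to 2.02% and 3.0% of it in WT and 11.7% and 11.1% in cKO, and the groups did not overlap. Of the 20 interferon genes listed besides Ifnb1, 19 were in the files and 13 passed the filter at 4 h. Several of these, such as Ifna6 and Ifna11, passed only through their coverage in cKO, so that no count or median over the 13 is given. Ifna5 had a coverage of 4.17 and 7.61 in WT against 166 and 173 in cKO (log2 fold change 4.89, SE 0.36, adjusted p = 0.0445 from limma), and Ifna4 had 1.59 and 6.65 in WT against 79.9 and 120 in cKO (4.86, SE 0.85, adjusted p = 0.0732). For Ifna4 the log2 fold change was 3.86 without WT replicate 1 and 5.86 without WT replicate 2, and the call was lost without either cKO sample. Ifna6 was listed at 0 and 0.526 in WT and had 10.6 and 5.48 in cKO. Ifna2, singled out after its values were seen as the Ifna gene with the highest coverage in WT, had 20.3 and 22.6 in WT against 150 and 184 in cKO. Markers of plasmacytoid dendritic cells, a cell type known for high IFNα production, were examined at 4 h: the 5 of 6 in the files summed to 68.0 to 106 in WT and 150 to 153 in cKO. Most of this difference was in Cox6a2, at 22.5 and 52.0 in WT against 77.0 and 93.4 in cKO, and Pacsin1 and Ly6d were also higher in both cKO samples. The groups overlapped for the defining marker Siglech (4.62 and 6.29 in WT, 2.45 and 6.44 in cKO) and for Ccr9 (31.5 and 34.4, 43.4 and 32.5). Ly6d was at 0 in 1 WT sample, and the part of these markers in the result was not tested.

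**Figure D2:**
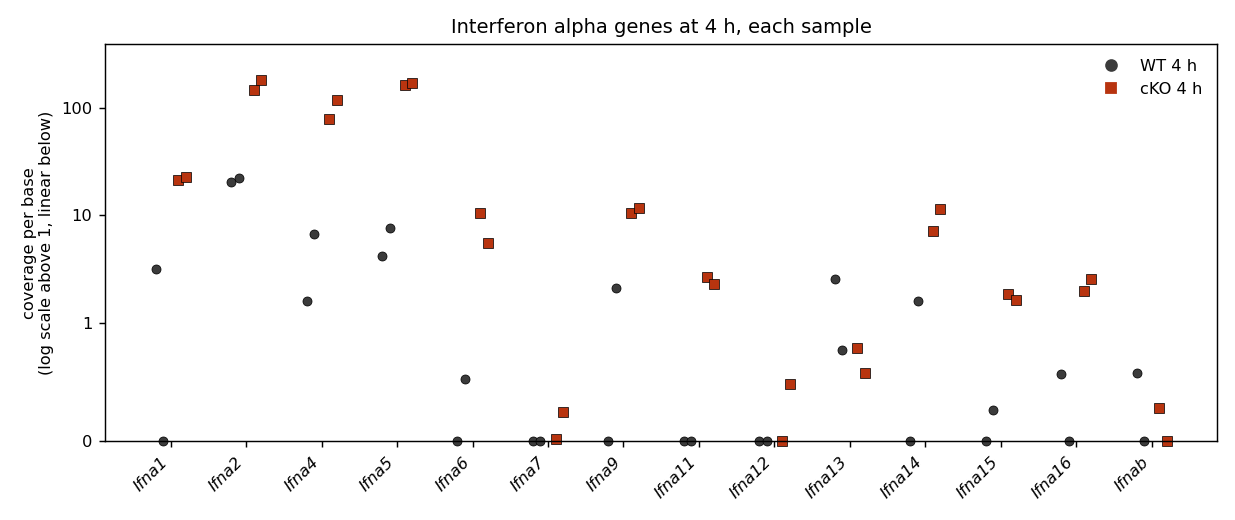
Coverage per base of the 14 interferon alpha genes at 4 h in each WT (circles) and cKO (squares) sample, on an axis that is linear from 0 to 1 and logarithmic above 1. The genes with the highest coverage, among them Ifna5 at 4.17 and 7.61 in WT against 166 and 173 in cKO, lie higher in both cKO samples, and their sum is 33.0 and 42.1 in WT against 452 and 537 in cKO.

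The 2 chains of the type I receptor lay on opposite sides of the WT level at 4 h. Ifnar1, whose product carries TYK2, had a coverage of 2154 and 2394 in WT against 2111 and 2370 in cKO at 0 h, and the groups overlapped. At 4 h it had 2027 and 2257 in WT against 1725 and 1691 in cKO, so that both cKO samples lay below both WT samples. Its log2 fold change was -0.02 at 0 h (SE 0.13, adjusted p = 0.939 from limma) and -0.32 at 4 h (SE 0.11, adjusted p = 0.169), and neither was called. After centring the value at 4 h was -0.66 and was called lower, with an adjusted p of 0.0896. Ifnar2, whose product carries JAK1, had a coverage of 3333 and 3127 in WT against 4022 and 4463 in cKO at 0 h. At 4 h it had 3993 and 3684 in WT against 4790 and 5017 in cKO. Both cKO samples were above both WT samples at either time. The log2 fold change of Ifnar2 was 0.39 at 0 h (SE 0.12, adjusted p = 0.224 from limma) and 0.35 at 4 h (SE 0.11, adjusted p = 0.140), folds of 1.31 and 1.28 that stayed under the threshold of 1.5, and after centring it was 0.30 and 0.02.

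Ifngr1 was the member called between the genotypes in resting cells. It encodes the ligand-binding chain of the IFNγ receptor. Its coverage at 0 h was 5355 and 4998 in WT against 3249 and 3308 in cKO, without overlap. The log2 fold change was -0.66 (SE 0.11), which is 0.634 of the WT level, with a p of 0.00756 and an adjusted p of 0.122 from limma. Of the 16251 genes tested at 0 h, 14.6% were called by the rule of fold change and unadjusted p (8.99% higher and 5.61% lower), and 1.03% with the adjusted p. After centring 7.25% were called higher and 6.98% lower. Ifngr1 was the 1 member called of the 7 tested, it was called lower after centring as well (-0.75) and in all 4 fits that left out 1 sample (-0.71 to -0.61), and it was not called with the adjusted p. At 4 h the coverage of Ifngr1 was 670 and 850 in WT against 612 and 603 in cKO. Both cKO samples again lay below, and the log2 fold change of -0.31 (SE 0.17, adjusted p = 0.297) was not called on the deposited scale and was called lower after centring (-0.65, adjusted p = 0.0937 from limma). Of the 8 macrophage markers, 4 were lower in cKO at 0 h without overlap (Csf1r, Adgre1, Itgam and Fcgr1), 2 were higher (Cd68 and Lyz2) and Mertk and Cd14 overlapped. Among all genes tested at 0 h, 57.0% did not overlap. Csf1r was at 38700 and 44260 in WT against 26250 and 30290 in cKO, Adgre1 at 20130 and 24460 against 13820 and 14290, and Fcgr1 at 2541 and 2397 against 1318 and 1338. Cd68 was at 45500 and 42910 in WT against 69410 and 73400 in cKO and Lyz2 at 594 and 905 against 1158 and 1375, and the part of these markers in the result for Ifngr1 was not tested.

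Ifngr2, the signalling chain that carries JAK2, had a coverage of 3096 and 3070 in WT against 2887 and 3170 in cKO at 0 h, with overlapping groups. At 4 h it had 1976 and 2173 in WT against 2341 and 2332 in cKO, all cKO above WT. On the log2 scale the fold change was -0.03 at 0 h (SE 0.11) and 0.17 at 4 h (SE 0.11), neither called, and the second turned to -0.16 after centring.

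Among the kinases, Jak2 was the most changed by stimulation and lay lower in cKO at both times. Its coverage was 500 and 508 in WT against 417 and 468 in cKO at 0 h, and 7093 and 7378 in WT against 5983 and 5633 in cKO at 4 h. Both cKO samples were below both WT samples at each time. The log2 fold change was -0.19 at 0 h (SE 0.12, adjusted p = 0.444) and -0.32 at 4 h (SE 0.10, adjusted p = 0.152 from limma), and neither was called on the deposited scale. After centring the value at 4 h was -0.65 and was called lower, with an adjusted p of 0.105 from limma.

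Jak1, the kinase shared by both receptors, had a coverage of 3027 and 3436 in WT against 3558 and 3739 in cKO at 0 h. At 4 h it had 2002 and 2236 in WT against 2452 and 2384 in cKO, and the groups overlapped at neither time. On the log2 scale the fold change was 0.18 at 0 h (SE 0.13) and 0.19 at 4 h (SE 0.12), neither called, and the second was -0.14 after centring. Tyk2, the kinase of IFNAR1, was the most even of the 8 on the deposited scale, at 726 and 766 in WT against 739 and 774 in cKO at 0 h, and at 740 and 761 in WT against 868 and 807 in cKO at 4 h. Its log2 fold change was 0.02 at 0 h (SE 0.11) and 0.16 at 4 h (SE 0.11), neither called, and both turned below 0 after centring (-0.07 and -0.18). After centring at 4 h the values of Ifnar2 (0.02), Jak1 (-0.14) and Ifngr2 (-0.16) were smaller in size. The antisense gene 1700084C06Rik, whose exons overlap those of Tyk2, was at 339 and 326 in WT against 539 and 655 in cKO at 4 h. The part of its reads in the Tyk2 values was not tested.

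The median log2 fold change of the 8 members was 0.17 at 4 h, against 0.31 over all genes tested, and that of the 7 tested at 0 h was -0.02, against 0.10. Of the 8 members, 1 was called between the genotypes at 4 h against 25.0% of all genes tested, and 1 of 7 at 0 h against 14.6%. The WT and cKO values did not overlap for 8 of 8 members at 4 h, where 66.0% of all genes tested did not overlap, and for 5 of 8 at 0 h, against 57.0%. The 5 include Ifnb1, which was not tested at 0 h and is not among the genes behind that share. After centring 4 members were called at 4 h, Ifnb1 higher and Ifnar1, Ifngr1 and Jak2 lower, where 10.4% of all genes were called higher and 9.90% lower. The genotype effect at 4 h was not called different from that at 0 h for any of the 8 (0 at an adjusted p under 0.05 in limma, against 3.05% of 16284 genes, 2.28% higher and 0.761% lower, or 1.07% and 1.06% after centring). Of the 8 only Ifnb1 had an unadjusted p under 0.05 there (0.0129), with a difference of -1.73 that turned to 0.61 with a pseudocount of 1, since it was at or near 0 in resting cells.

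**Figure D3:**
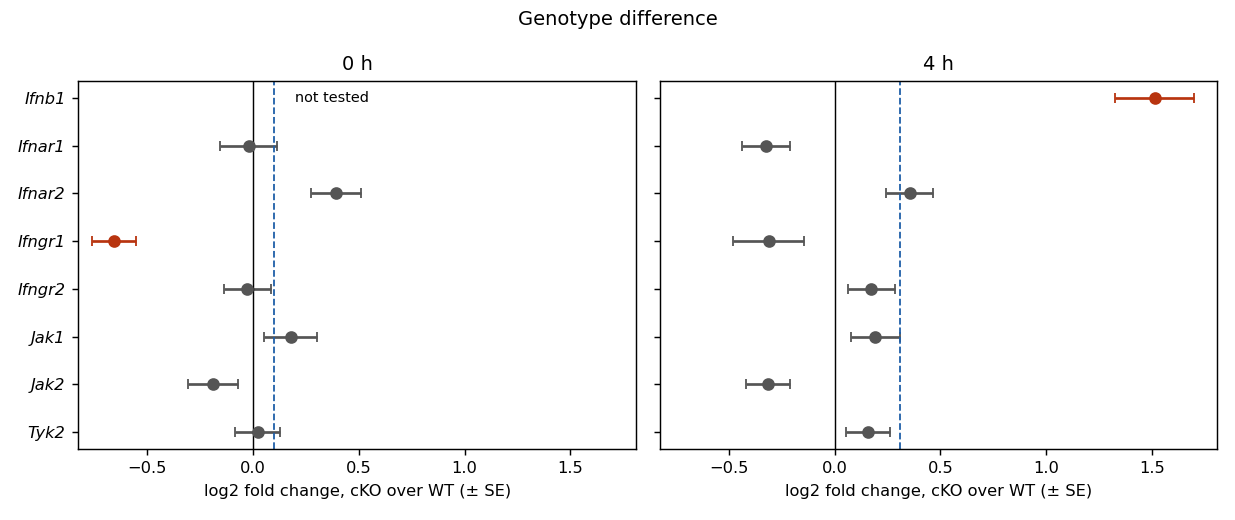
Log2 fold change of cKO over WT on the deposited scale (points) with its SE (bars) at 0 h and 4 h. Red marks a member called at a fold above 1.5 and an unadjusted p under 0.05, and the dashed line is the median of all genes tested (0.10 at 0 h, 0.31 at 4 h). Ifnb1 at 4 h (1.51) and Ifngr1 at 0 h (-0.66) were called, and Ifngr2, Jak1 and Tyk2 at 4 h lie above 0 but below the dashed line, so that their direction turns when each sample is centred on its median.

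The ratio of 2 genes within a library does not depend on its depth. The log2 ratio of Ifnar1 to Ifnar2 was -0.63 and -0.39 in WT against -0.93 and -0.91 in cKO at 0 h, and -0.98 and -0.71 in WT against -1.47 and -1.57 in cKO at 4 h. It was thus lower in cKO by 0.41 and 0.68, respectively, without overlap at either time. The log2 ratio of Ifngr1 to Ifngr2 was 0.79 and 0.70 in WT against 0.17 and 0.06 in cKO at 0 h. At 4 h it was -1.56 and -1.35 in WT against -1.93 and -1.95 in cKO, and the cKO mean lay 0.63 lower at 0 h and 0.49 lower at 4 h. In each receptor the first chain thus made up less of the coverage of the pair in cKO than in WT at both times. Coverage per base can also depend on which 3′ end of a transcript is used. This was not measured here, so the ratios are of coverage and not of numbers of mRNAs. The log2 ratio of Jak2 to Jak1 was -2.60 and -2.76 in WT against -3.09 and -3.00 in cKO at 0 h, and 1.82 and 1.72 in WT against 1.29 and 1.24 in cKO at 4 h. The difference between cKO and WT was -0.37 and -0.51. The log2 ratio of Jak1 to Tyk2 differed by 0.16 at 0 h (2.06 and 2.17 in WT, 2.27 and 2.27 in cKO) and by 0.04 at 4 h, where the groups overlapped (1.44 and 1.55 in WT, 1.5 and 1.56 in cKO). The exact two-sided permutation test gave p = 0.333, the smallest it can give with 2 against 2, for 7 of these 8 comparisons and 0.667 for Jak1 to Tyk2 at 4 h. How often ratios of other gene pairs do not overlap was not computed. Among single genes tested, 57.0% did not overlap at 0 h and 66.0% at 4 h. Each difference in a ratio follows from the log2 fold changes of its 2 genes given above and is no separate result.

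**Figure D4:**
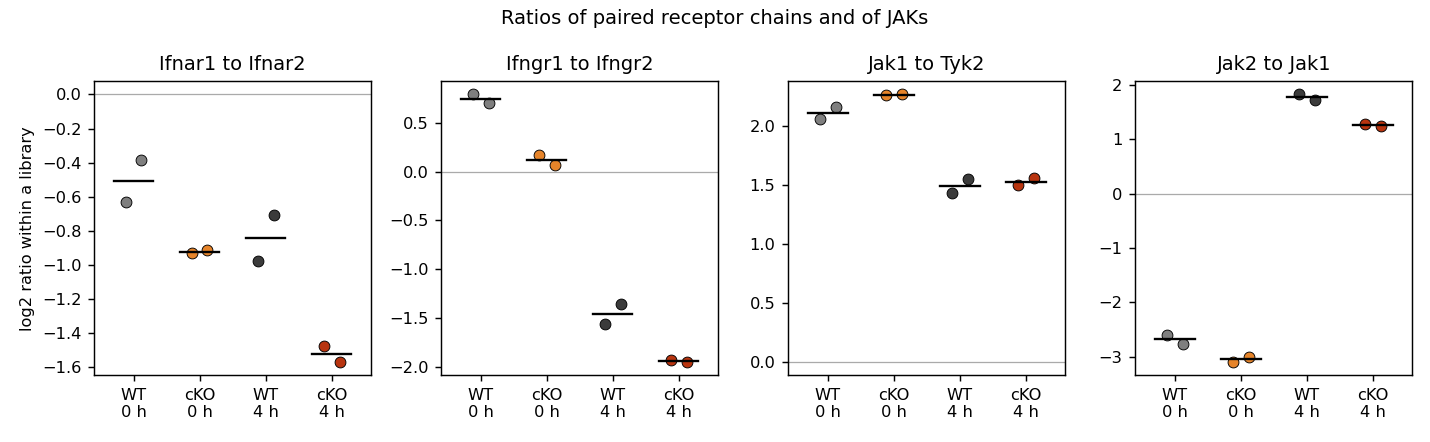
Log2 ratio of 2 genes within each library (points) and the mean of each group (lines, n = 2). Ifnar1 to Ifnar2, Ifngr1 to Ifngr2 and Jak2 to Jak1 lie lower in cKO than in WT, without overlap, at 0 h and at 4 h, by 0.37 to 0.68 in the mean. Among single genes tested, 57.0% did not overlap at 0 h and 66.0% at 4 h.

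The second comparison was that of stimulated with resting cells within each genotype, where a member was called at a fold change above 1.5 and an adjusted p under 0.05 in the fit over all 8 samples. The values of the 2 times come from separate tables in which no scaling was found, and no source used here names a batch. By this rule 66.4% of 16284 genes were called in WT and 63.6% in cKO, most of them lower at 4 h (54.7% in WT and 50.4% in cKO, with 11.7% and 13.2% higher). After centring 33.8% were higher in WT and 31.5% in cKO, and 20.8% were lower in each. Of the 8 members 4 were called in either genotype, and these were the same genes: Ifnb1 and Jak2 rose, and Ifngr1 and Jak1 fell on the deposited scale. Ifnb1 was at or near 0 in resting cells and passed the filter only through its coverage at 4 h. Its call is not read as a test. The values at 0 h and 4 h did not overlap for 6 members in WT and for 8 in cKO, against 84.3% and 86.6% of all genes.

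Ifnb1 went from 0 in WT to 1403 and 1631, and from 0.587 and 1.20 in cKO to 3852 and 4851, and no fold is given against such values. The log2 fold change of Jak2, which rose, was 3.84 in WT (SE 0.10, 14.4-fold, adjusted p = 1.85e-05) and 3.72 in cKO (SE 0.10, 13.1-fold, adjusted p = 1.92e-05 from limma). It ranked above 96.2% of all genes in WT and 95.2% in cKO, and after centring the values were 5.31 and 4.92. Ifngr1 fell by 2.78 in WT (SE 0.14, adjusted p = 7.17e-05 from limma), to 0.146 of the resting level, and by 2.43 in cKO (SE 0.14, adjusted p = 0.000118), to 0.185 of it. It was the member with the largest fall, and it stayed below the median gene, at -1.31 and -1.23 after centring.

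Jak1 was lower at 4 h by 0.61 in WT (SE 0.11, adjusted p = 0.00574) and by 0.59 in cKO (SE 0.11, adjusted p = 0.00669 from limma), which was called on the deposited scale but turned to 0.86 and 0.61 higher after centring. This call lay close to the fold threshold: it was lost in WT without WT 0 h replicate 2 or WT 4 h replicate 1 (-0.52 and -0.53) and in cKO without cKO 0 h replicate 4 or cKO 4 h replicate 4. Ifngr2 had log2 fold changes of -0.57 in WT and -0.37 in cKO, and Ifnar1 of -0.09 and -0.39, none called, and all 4 values turned above 0 after centring (0.89, 0.83, 1.38 and 0.81). Ifngr2 was called lower in WT after quantile normalization (-0.61) and without WT 4 h replicate 2 (-0.64). Ifnar2 (0.25 in WT, 0.21 in cKO) and Tyk2 (0.01 and 0.15) were not called on the deposited scale. All 8 members were called after centring, 7 of them higher in each genotype. Among all genes, 33.8% were then called higher in WT and 31.5% in cKO, and 20.8% lower in each. The counts of members include Ifnb1, whose call was set against values at or near 0 in resting cells.

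**Figure D5:**
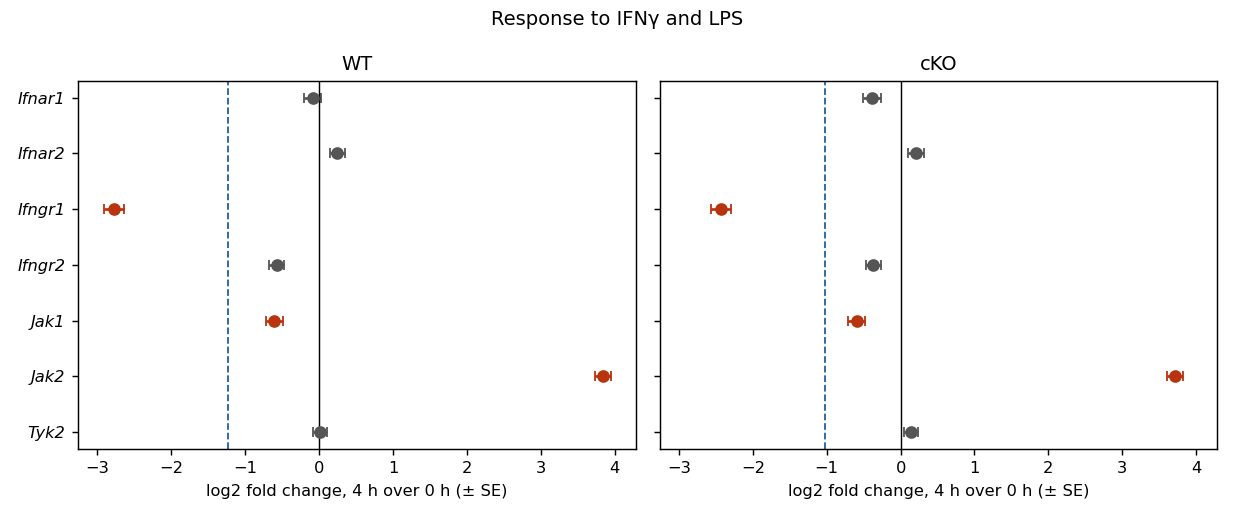
Log2 fold change from 0 h to 4 h of the members with coverage in resting WT cells, in WT and in cKO (points) with SEs (bars). Red marks a call at a fold above 1.5 with an adjusted p under 0.05, and the dashed line is the median of all genes (-1.24 in WT, -1.03 in cKO). Jak2 rose by 3.84 and 3.72 and Ifngr1 fell by 2.78 and 2.43, while Ifnar1, Ifngr2 and Jak1 lie below 0 but above the dashed line, so that their direction turns after centring.

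The order of the levels was rearranged by stimulation. In resting WT cells Ifngr1 had the highest coverage (5176), followed by Jak1 (3232) and Ifnar2 (3230), whose samples overlapped, and by Ifngr2 (3083), Ifnar1 (2274), Tyk2 (746), Jak2 (504) and Ifnb1. In resting cKO cells Ifnar2 (4242) came first, before Jak1 (3648) and Ifngr1 (3279), and the last 5 kept the order of WT. In stimulated WT cells Jak2 (7236) was highest, Ifnar1 (2142), Jak1 (2119) and Ifngr2 (2075) overlapped with their neighbours in the order, and Ifngr1 (760) and Tyk2 (751) overlapped at the bottom. In stimulated cKO cells Jak2 (5808) was again first, and Ifnb1 (4351) was the third, overlapping with Ifnar2 (4903), whereas in WT it was the sixth (1517). Ifngr1 (607) was last. The receptor chains Ifngr1 and Ifngr2 changed places between the times in both genotypes, with Ifngr1 above Ifngr2 at 0 h and below it at 4 h.

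The genes most like each member were sought among 16283 others by the root mean square difference of log2 coverage over the 8 samples after each gene was centred on its own mean. For Ifnb1 these were Il12a (0.727), the p35 subunit of interleukin-12, Cxcl3 (0.787), a neutrophil chemokine, and Ptgs2 (1.16), the inducible cyclooxygenase. Cxcl3 shared both its near absence at 0 h (0.0858 to 2.18) and its higher values in cKO at 4 h (1148 and 770 in WT, 5404 and 6833 in cKO). For Jak2 the most alike were Mndal (0.116), an interferon-inducible gene of the p200 family, H2-DMb1 (0.138), a chain of the peptide-loading factor of MHC class II, and Trim30d (0.157). Mndal had 874 and 753 in WT against 654 and 627 in cKO at 0 h and 11950 and 12450 in WT against 9758 and 9157 in cKO at 4 h. For Ifngr1 they were Abcc10 (0.0813), Sap25 (0.118) and Slc37a4 (0.140). The other members had closer neighbours: Nucb2, Rngtt and Stx12 for Ifnar1 (0.0560 to 0.0674), App, Eif4e2 and Mapre1 for Ifnar2 (0.0488 to 0.0779), Rpl4, Copz1 and Adss for Ifngr2 (0.0406 to 0.0456), Eif2s3x, Zfyve16 and Bud13 for Jak1 (0.0433 to 0.0555), and Csnk1d, Arpc5 and Ldha for Tyk2 (0.0490 to 0.0527). All of these values share the 8 libraries and their depths, and they describe likeness only.

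Downstream of the receptors, 7 genes for STATs and Irf9 were examined, and 0 were called between the genotypes at either time in limma on the deposited scale. Of all genes tested, 25.0% were called at 4 h and 14.6% at 0 h. At 4 h 3 of the 7 had an unadjusted p under 0.05 with folds below the threshold, where 34.3% of all genes had such a p at any fold, and at 0 h 0 had, against 21.3%. After centring 1 was called lower at 0 h, against 6.98% of all genes. With stimulation 5 of the 7 rose and 1 fell in each genotype on the deposited scale, where 11.7% of all genes rose and 54.7% fell in WT and 13.2% and 50.4% in cKO. After centring 6 were called higher and 0 lower, against 33.8% and 20.8% of all genes in WT and 31.5% and 20.8% in cKO.

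The counts of the lists that follow are to be read against all genes tested, of which 20.8% were called higher and 4.17% lower at 4 h (10.4% and 9.90% after centring) and 8.99% higher and 5.61% lower at 0 h. Among 23 inhibitors of receptor and JAK signalling, 4 (17.4%) were called higher and 1 (4.35%) lower in cKO at 4 h (2 and 1 after centring, 2 higher without cKO replicate 4, 0 lower without either cKO sample). Their median log2 fold change was 0.38, against 0.31 over all genes tested at 4 h. The adaptor Sh2b3, a negative regulator of JAK2, had a coverage of 282 and 257 in WT against 656 and 702 in cKO (log2 fold change 1.34, SE 0.12, adjusted p = 0.0475 from limma). Trim28 (1.05) was called too, also after centring (0.71), and so was Socs4 (1.10), whose call was lost after centring (0.76), after quantile normalization, with unmoderated variances and without either WT sample or cKO replicate 4. At 0 h 1 of the 23, Socs6 (0.77), was called higher, and it was not called without either cKO sample.

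Of 22 genes that act in the induction of Ifnb1, 4 (18.2%) were called higher and 1 (4.55%) lower in cKO at 4 h, and after centring 0 and 3, with a median log2 fold change of 0.22. Irf7, which amplifies type I interferon transcription, had a coverage of 9105 and 8745 in WT against 17150 and 16440 in cKO (log2 fold change 0.91, SE 0.10, adjusted p = 0.0542 from limma). It was called after quantile normalization (0.68) and at equal total coverage, while centring ended its call (centred 0.58). Centring ended those of Traf3 (0.84, centred 0.50) and Hmga1 (0.86, centred 0.53) as well, while both were called at equal total coverage, and the call of Hmga1 was lost without either cKO sample. Without cKO replicate 3 the higher calls were 2, and the lower calls ranged from 0 to 2 over the fits that left out 1 sample. At 0 h Traf3, the ubiquitin ligase on the way to IRF3, was called higher (1.42, SE 0.20, adjusted p = 0.111 from limma), with 218 and 283 in WT against 612 and 717 in cKO. It was the only gene of the 22 called there, and 2 were called without WT replicate 2.

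Of the 18 type I interferon-stimulated genes in the files, all rose with stimulation in both genotypes, as did 11.7% of all genes in WT and 13.2% in cKO. At 4 h 5 (27.8%) were called higher in cKO and 0 lower, against 1 and 1 after centring and 2 higher without either cKO sample, and the median log2 fold change was 0.21. Isg20, an exonuclease, had a coverage of 364 and 342 in WT against 1119 and 1205 in cKO (log2 fold change 1.72, SE 0.11, adjusted p = 0.0395 from limma), while Ifi44 had 1422 and 1407 in WT against 1428 and 1500 in cKO and was not called. Irf7 and Rsad2 (0.85) were among the 5, and neither was called after centring. The call of Rsad2 (centred 0.51) was also lost at equal total coverage, with unmoderated variances and in each fit that left out 1 sample. At 0 h the median was -0.28 against 0.10 over all genes, and 1 (5.56%) was called higher and 3 (16.7%) lower, namely Ifi44 (12.1 and 14.4 in WT, 2.04 and 2.62 in cKO), Oas3 (451 and 610, 319 and 282) and Cmpk2 (55.2 and 79.0, 38.4 and 40.1), and the lower calls were 1 without WT replicate 2 or without either cKO sample.

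Of 20 IFNγ target genes, 5 (25%) were called higher and 0 lower in cKO at 4 h, and after centring 2 and 2 (10% each), with a median of 0.15. Nos2, the inducible nitric oxide synthase, had 19480 and 20680 in WT against 44730 and 43710 in cKO (log2 fold change 1.14, SE 0.10, adjusted p = 0.0478 from limma), and Ciita (1.22) and Tgtp1 (0.90) were called too. Tgtp1 was not called after centring (0.57) but was after quantile normalization (0.69) and at equal total coverage. Without cKO replicate 4 the higher calls were 3. At 0 h the chemokine Cxcl10 (33.0 and 19.8 in WT, 5.88 and 8.30 in cKO) and Gbp3 (139 and 142, 89.3 and 96.1) were called lower. The call of Cxcl10 was lost without either cKO sample and with unmoderated variances, and that of Gbp3 without WT replicate 2 or cKO replicate 3. Cxcl9 was at 0.889 and 6.96 in WT and listed at 0 in cKO, so that it passed the filter only through WT and no count of lower genes is given. At 4 h Cxcl10 was at 164700 and 158500 in WT against 156100 and 163800 in cKO.

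Of 14 related receptor chains and Jak3, 3 (21.4%) were called higher in cKO at 4 h, Il12rb1 (log2 fold change 1.27), Csf2ra (1.0) and Il6st (0.82), and the median was 0.17. After centring Il6st (0.48) was not called, Il12rb1 and Csf2ra were, and 4 genes were called lower. In the fit over all 8 samples Il12rb1 was not called. The call of Il12rb1 was lost without either cKO sample. At 0 h Il21r was called lower (-1.36, with 413 and 354 in WT against 122 and 180 in cKO), a call that was lost without either WT sample. The interaction between genotype and stimulation was called for 2 inhibitors, 1 gene of Ifnb1 induction, 2 type I interferon-stimulated genes and, of the IFNγ targets, Gbp3 and Nos2, in a comparison that called 3.05% of all genes. After centring the counts were 0, 1 and 1, and neither Gbp3 nor Nos2 was called. Nos2 and the Ifna genes were listed at 0 in all resting samples, so that their interaction is the difference at 4 h itself and no separate test.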

How the data were processed

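RNA was extracted from BMDMs, and libraries made with a kit that does not mark strand were sequenced in pairs. Per the labels and the study's methods, the authors aligned reads to GRCm38 (mm10) with HISAT2 2.2.1, quantified RefSeq genes with StringTie 2.1.7 and deposited, in a table per time, values taken here as a coverage signal. No header states the unit, which was inferred: multiplied by transcript length, coverage of lowly covered genes with 1 annotated transcript was a whole number of bases (within 0.02) for 28.5% of 6490 values, against 4% if evenly spread. Read numbers per gene are not given in the sources used here, so no counting interval was computed. How transcripts of a gene were combined is not given in the sources used here. The tables also hold the authors' fold changes and p-values, which were not used. All sample columns were used.

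limma 3.58.1 in R 4.3.3 was run on log2(coverage + 0.1) over every gene whose mean in the fitted samples reached 0.5. Genotypes were compared at each time with the 4 samples of that time, by the study's rule (fold above 1.5, unadjusted p under 0.05). Stimulation and the interaction were fitted over all 8 samples with Benjamini-Hochberg adjustment. The p-values rest on the spread between the pools, which limma moderates toward a value drawn from all genes tested. The SE of a member is thus not its own spread alone. Alternatives changed the pseudocount, filter, scaling, variance estimate, samples and threshold, and those for the counts of pathway lists were chosen after seeing the data. The named genes are the 8 members, Nudt21, from each list the up to 3 genes called at each time with the largest genotype difference, and the 3 genes most alike each member. The members and lists were chosen with earlier results of these data known. Mx1, Mx2, Ifnl3, Klk1, Eomes and Klra8 were not found under these symbols. A few listed genes are not reported here, and counts over the STAT list leave them out. Annotation came from GENCODE M21, which matched 20726 of 21080 symbols, and promoters from RefSeq.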

Additional observations from a re-analysis of the deposited data

How the results depend on the processing

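Between the genotypes, 1 member was called at 4 h under 11 of 14 alternatives, always Ifnb1, whose log2 fold change stayed between 1.18 and 1.68 in all 14 (adjusted p 0.00174 to 0.112 outside the fits that left out a sample). The count was 4 after median-centring, 2 with quantile normalization and 0 with the adjusted p. At 0 h, Ifngr1 was called in all alternatives but the adjusted p (0 called), and the count was 2, with Ifnb1 added, without the filter on low values and with all 8 samples in the fit, and 1 to 2 when 1 sample was left out (2, again with Ifnb1, without WT replicate 1 or 2). In these fits Ifnb1 is set against WT values of 0, and its call is not read as a result. Stimulation called 8 members after median-centring in WT and 8 in cKO, and 3 to 5 in WT and 3 to 4 in cKO when 1 sample was left out. The counts for stimulation include Ifnb1, which was at or near 0 in resting cells. Of 634 refitted log2 fold changes of members 578 kept their direction and call and 39 turned sign.

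At 4 h, Ifngr2, Jak1 and Tyk2 were -0.16, -0.14 and -0.18 after centring, -0.0677, -0.0423 and -0.14 after quantile normalization, and -0.0384, -0.019 and -0.0542 at equal total coverage. At 0 h, Tyk2 was -0.0704, -0.10 and -0.10 under these, and leaving out 1 sample gave -0.0172 to 0.0606 for Tyk2, -0.11 to 0.0619 for Ifnar1 and -0.0946 to 0.0399 for Ifngr2. For stimulation, Ifnar1, Ifngr2 and Jak1 were 1.38, 0.89 and 0.86 in WT and 0.81, 0.83 and 0.61 in cKO after centring, Ifnar2 in cKO was -0.10 after quantile normalization, and Tyk2 in WT was -0.029 to 0.0488 when 1 sample was left out. For the interaction, Ifnb1 was 0.61 with a pseudocount of 1, Ifngr2, Jak1 and Tyk2 were -0.0651, -0.25 and -0.13 after centring, Jak1 was -0.10 after quantile normalization and -0.0741 at equal total coverage, and leaving out 1 sample gave -0.11 to 0.037 for Ifnar2 and -0.0767 to 0.11 for Jak1. The cause of these changes was not tested.

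Over all genes, 3112 were called higher and 624 lower at 4 h, against 1552 and 1480 after centring, 1530 and 1476 after quantile normalization, 1929 and 1015 at equal total coverage and 498 and 79 with the adjusted p, and 386 lower with unmoderated variances. Leaving out 1 sample gave 1765 to 4000 higher and 478 to 862 lower at 4 h, with 1996 higher without cKO replicate 3, 1765 without cKO replicate 4 and 4000 without WT replicate 2. At 0 h 1461 and 912 became 114 and 53 with the adjusted p. Stimulation called 1901 higher and 8910 lower in WT and 2143 and 8213 in cKO, against 5499 and 3392, and 5131 and 3391, after centring, and 3514 and 4636, and 3366 and 4671, with quantile normalization. For the interaction, 372 and 124 became 746 and 247 without the filter, 1035 and 247 with an intensity trend, and 174 and 210 higher with centring and quantile normalization. Leaving out 1 sample gave 117 to 546 higher and 67 to 146 lower, and each sample but WT 4 h replicate 2 lowered the higher count by over 1.5 times when left out.

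No paired analysis was possible because WT and cKO share no replicate number, for the comparisons of genotype. Replicate numbers recur between the times, but deviations from group means correlated at only 0.0204 for numbers 1 and 2 and 0.0237 for 3 and 4, so the numbers were not taken to pair samples. With the replicate block, 4 members were called by stimulation in WT and 4 in cKO, as without it, and 0 in the interaction, which then called 15 and 16 of all genes. With 2 samples a group, the spread is poorly known.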
